A study of Mus musculus with 2 samples.

Results

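The clustered protocadherins are cell adhesion genes that lie in tandem arrays called alpha, beta and gamma. They were taken as every row of the authors' deposited table whose gene symbol starts with Pcdha, Pcdhb or Pcdhg, which gave 59 of 23365 genes: 15 alpha, 22 beta and 22 gamma. The table comes from RNA sequencing of mouse embryonic fibroblasts, mesenchymal cells grown in culture from embryos. Cells labelled wild type were compared with cells labelled TET1/TET2 knocked out, and both groups share the cell type and the TRIzol RNA preparation. There was 1 library for each genotype, and the sources used here do not give the embryo stage, passage, strain or knock-out design. The deposited columns name a condition A and a condition B, which match neither sample's label, so each ratio below sets condition B over A and carries no genotype. The 2 columns with the level in each condition were for that reason not used, and each gene is described by its mean normalized count over both conditions and by its ratio. With 1 library a genotype, no difference here has a replicate check.

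Each clustered protocadherin carries extracellular cadherin repeats, through which it binds an identical protein on a neighbouring cell. In the alpha and gamma arrays every first exon has its own promoter and is spliced to constant exons that encode a common cytoplasmic tail, while each beta gene is a single coding exon without that tail. In neurons, individual cells switch on different sets of these promoters. The choice involves the insulator protein CTCF, the cohesin ring, distant enhancers and DNA methylation of the promoters, and it gives each neuron a surface identity used in dendrite self-avoidance. The C-type genes at the end of the alpha and gamma arrays have promoters that are used more broadly than the others. TET enzymes oxidize 5-methylcytosine, the mark that silences unused promoters of these arrays.

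The labelled cell type was checked against marker genes. All 12 fibroblast markers of the authors' deposited table had a mean normalized count above the minimum of 50 used here, from 395 for Lum to 550534 for the highest. The neuronal markers were mixed: 4 of 12 had a mean of at least 50, led by the microtubule-binding Map2 (5711), Stmn2 (4013) and the tubulin gene Tubb3 (3977), while per the authors' deposited table Rbfox3, a defining marker of mature neurons, was listed at 0 and Snap25 had a mean of 2.53. Between conditions, 5 of the 12 fibroblast markers met, toward condition B, the size rule used here, a log2 ratio at or beyond 1 in either direction. Of all genes at a mean of at least 50, 8.31% met it toward condition B. Of the 5 markers, 4 passed what is called the authors' threshold here, an adjusted p under 0.1, against 2.29% of all genes with a p-value. None of the 4 neuronal markers above the minimum met the size rule, but at lower levels Nefm lay at 3.47 on the log2 scale with a mean of 46.0, and the neural crest factor gene Sox10 at 4.98 with a mean of 31.0, per the authors' deposited table. Of the markers above the minimum, epithelial Krt18 lay at -2.29, endothelial Kdr and Tek at 2.78 and 1.21 and myeloid Lyz2 at 3.84 per the authors' deposited table. The part of these differences in the results below was not tested. In bulk RNA, fewer cells of a kind and less RNA per cell cannot be told apart.

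The arrays differed in how much of them was detected. All 22 gamma genes had a mean normalized count of at least 50, against 12 of 22 beta genes and 1 of 15 alpha genes. Of the rest, 6 beta and 3 alpha genes lay between 10 and 50 and 4 beta and 8 alpha genes lay above 0 but under 10. The remaining 3 alpha rows, Pcdha1, Pcdha4 and Pcdha4-g, were listed at 0 in both conditions per the authors' deposited table. The gamma genes made up 87.1% of the summed mean of all 59 members, the beta genes 12.3% and the alpha genes 0.617%. A filter at 50 therefore kept 35 members, which are mostly gamma genes.

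Levels of single genes were then compared after division by length, which the counts and shares of the arrays above do not include. For 56 members with a single matching gene in GENCODE M21, the length was counted as the 50-base words of the longest transcript that no other member contains. The length thus leaves out the constant exons and any other shared stretch: between 57.6% and 63.9% of the words were shared in the alpha genes before the C-types and between 41.2% and 54.6% in gamma A and gamma B, against 12% at most in beta. The counts are those of the whole row. Any reads of shared stretches counted in a row would raise its value per kb, which could affect gamma and alpha more than beta. By this measure Pcdhgc3 stood first, with 5570 mean normalized counts per kb of unshared sequence, 10.5 times the next member, Pcdhgb6, at 532. Pcdhgc5 had 493 and Pcdhgb2 438, while the gamma A and B genes together ranged from 24.7 (Pcdhgb8, a pseudogene in RefSeq) to 532 with a median of 165 per kb. The beta genes had a median of 16.5 per kb and were uneven along their array. From Pcdhb14 to Pcdhb22, the end next to gamma, they ranged from 13.7 to 199 per kb with a median of 55.0, and from Pcdhb1 to Pcdhb13 from 0.208 to 49.3 with a median of 3.98. Among alpha genes Pcdhac2, the last of its array, had 36.7 per kb, and the 10 matched genes before the C-types had at most 5.78; Pcdha10 and Pcdha11 had no matching gene and no value per kb, although Pcdha10, at 30.9, had the highest mean normalized count of the alpha genes before the C-types per the authors' deposited table. No spread between libraries is available for these levels, so the order of neighbouring values cannot be read as a difference.

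**Figure D1:**
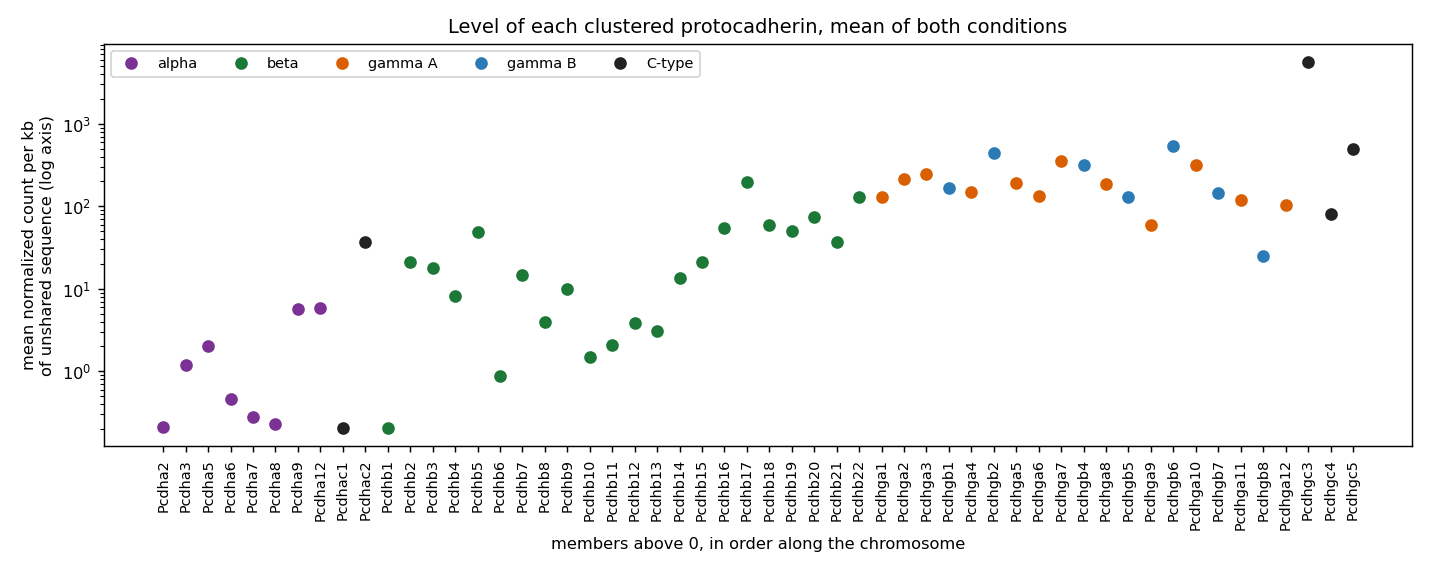
Level of each clustered protocadherin above 0 with a matched length (Pcdha10 and Pcdha11 had none), as the mean normalized count of both conditions per kb of transcript sequence not shared with another member (log axis), in order along the chromosome. Points are single genes coloured by array and type; Pcdhgc3 lies highest at 5570 per kb, gamma A and B genes lie between 24.7 and 532, and the matched alpha genes before the C-types at or below 5.78.

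How the authors counted reads in the constant exons could not be read from the labels or the table. Within alpha, Pcdha1 and Pcdha4 share 61.0% and 58.2% of their words with other members and yet were listed at 0, whereas Pcdhac2 had a mean normalized count of 111 per the authors' deposited table. No reads of the shared alpha exons were thus counted in those 2 rows. In gamma the lowest protein-coding row was Pcdhga9, with a mean of 149 per the authors' deposited table, so at most that much can have been added to every such gamma row. Whether the mean of 14287 for Pcdhgc3 includes reads of the constant exons was not tested.

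At a mean normalized count of at least 50, more members lay lower than higher in condition B. Of 35 members, 23 had a log2 ratio under 0 (65.7%), against 52.8% of all genes at that mean. The size rule was met by 12 of 35 members (34.3%) and by 17.9% of all 12401 genes. In condition B 8 members were lower by this rule (22.9%, against 9.60% of all genes) and 4 were higher (11.4%, against 8.31%). The median log2 ratio of the 35 members was -0.34, with quartiles of -0.93 and 0.37, and that of all genes was -0.04, with quartiles of -0.39 and 0.30. Genes of lower level vary more: among 2741 genes with means from 200 to 1000 the quartiles were -0.67 and 0.36. Their median was -0.15, and the 23 members in that range had a median of -0.34. Means of at least 1000 were held by 8336 genes with a finite ratio but by only 3 members. The shares above were not matched for level, so part of their difference from all genes may go with level, which was not tested. Members share an array, and alpha and gamma members share exons, so they do not replicate each other and no test was made over them.

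No member passed the authors' threshold. Per the authors' deposited table the count was 0 of 56 members with a p-value, against 2.29% of 17339 genes. The lowest adjusted p among members was 0.482, for Pcdhb21, per the authors' deposited table. A raw p under 0.05 was listed for 1 member, the same Pcdhb21 (raw p = 0.0229 per the authors' deposited table), which is 1.79% of members against 6.28% of all genes. These p-values compare 2 libraries and not the genotypes.

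The beta array lay lower in condition B almost throughout. Of its 12 genes at a mean of at least 50, 11 had a log2 ratio under 0 (91.7%, against 52.8% of all genes) and 4 met the size rule (33.3%, against 9.60% of all genes that were lower by it), all lower, with a median of -0.76 and a range from -2.91 to 0.17. Beta proteins are adhesion receptors without the shared cytoplasmic tail. Pcdhb21 had a mean normalized count of 152 and was 7.49-fold lower in condition B per the authors' deposited table. Its neighbour Pcdhb22, with a higher mean of 773, was 2.47-fold lower per the authors' deposited table (log2 ratio -1.31, raw p = 0.0857). Pcdhb21 shared 11.3% of its 50-base words with other members, mostly with Pcdhb22, so reads could be split between these neighbours. Pcdhb19 was 3.15-fold lower per the authors' deposited table, at a mean of 343 (raw p = 0.0733, adjusted p = 0.989), and Pcdhb20 was 2.76-fold lower, at a mean of 246 (raw p = 0.150). These 4 adjacent genes are the beta genes that met the size rule at the minimum mean.

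The other beta genes near gamma were lower by less. Pcdhb17, the beta gene with the highest mean, 886, had a log2 ratio of -0.90 per the authors' deposited table. The log2 ratios per the authors' deposited table were -0.63 for Pcdhb14, -0.89 for Pcdhb15, -0.34 for Pcdhb16 and -0.45 for Pcdhb18, with means of 117, 57.0, 279 and 288. Hence all 9 genes from Pcdhb14 to Pcdhb22 lay below 0, against 52.8% of all genes at a mean of at least 50. At the other end of the array ratios were near 0: Pcdhb2 had -0.20, Pcdhb3 0.17 and Pcdhb5 -0.21, at means of 57.7, 65.6 and 164 per the authors' deposited table. Pcdhb3 was the beta gene above 0 at this mean.

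Beta genes with means from 10 to 50 were also below 0, 6 of 6, against 51.5% of all genes at a mean of at least 10. Pcdhb12 had the lowest log2 ratio of all members at a mean of at least 10, -4.17 per the authors' deposited table, at a mean normalized count of only 10. Pcdhb13 had -1.70 at a mean of 11.2 per the authors' deposited table, Pcdhb9 had -1.05 at 27.5 and Pcdhb8 had -0.94 at 12.3. Pcdhb7 (-0.50) and Pcdhb4 (-0.15) had means of 47.0 and 28.9 per the authors' deposited table. Counting alone gives the log2 ratio an SD of about 0.645 at a mean of 10 and 0.289 at a mean of 50. That takes reads as counted once, libraries as equal and the counts of both conditions as equal. Unequal counts give a larger SD, so ratios of this group are imprecise. The ratio of Pcdhb12, 18-fold lower in condition B per the authors' deposited table, rests on very few reads in condition B. Pcdhb1, Pcdhb6, Pcdhb10 and Pcdhb11 had means under 10, between 0.527 and 8.27.

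**Figure D2:**
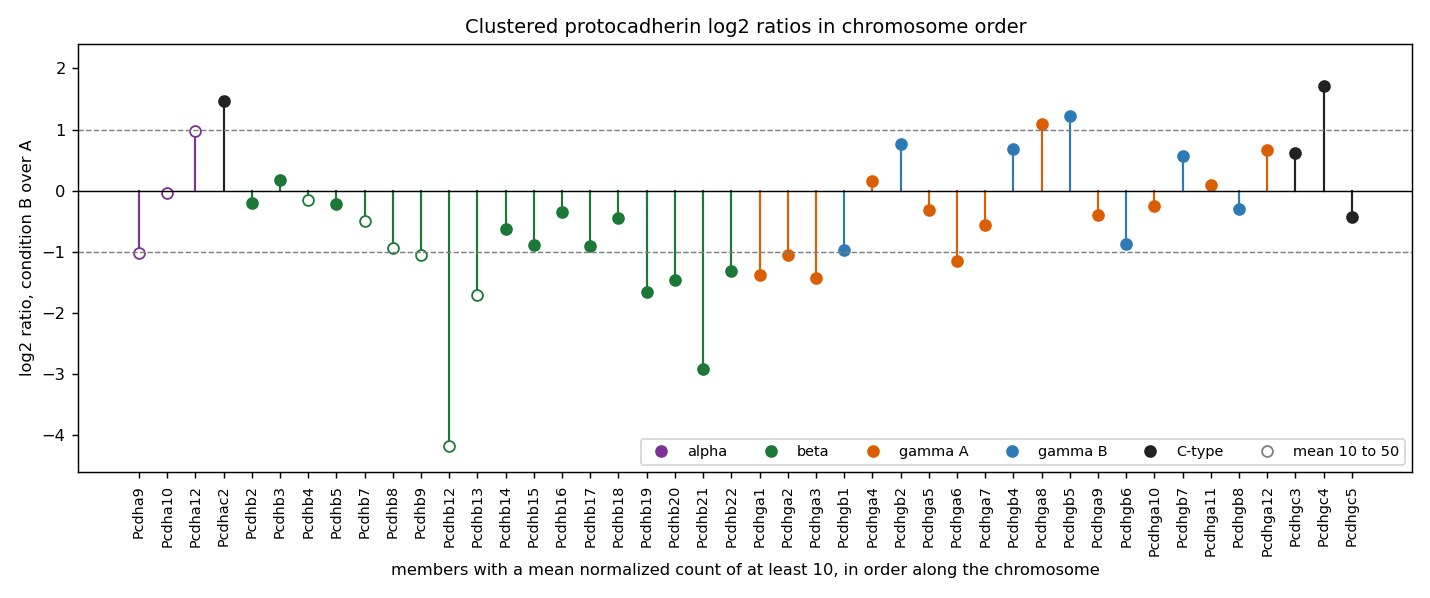
Log2 ratio of condition B over condition A (vertical axis) for the 44 members whose mean normalized count reached 10, in order along the chromosome; each point is 1 gene, open points have a mean of 10 to 50, and dashed lines mark the size rule. From Pcdhb4 to Pcdhgb1 all 20 members lie below 0, and the rest of gamma holds ratios of both signs.

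The gamma array went both ways. Of its 22 genes, 12 had a log2 ratio under 0 (54.5%, near the 52.8% of all genes), and the median was -0.27 with a range from -1.43 to 1.72. By the size rule 4 of the 22 were lower (18.2%, against 9.60% of all genes) and 3 of the 22 were higher in condition B (against 8.31%). Gamma A and gamma B genes belong to separate sequence subfamilies that alternate along the array, and both encode receptors with the shared gamma tail. Of 12 gamma A genes, 8 lay below 0 with a median of -0.35. Of 7 gamma B genes, 3 lay below 0 and 4 above it, with a median of 0.57. These counts stand against the 52.8% of all genes below 0. No test of that difference was made, as the subfamilies overlap in range: gamma A spanned -1.43 to 1.09 and gamma B -0.96 to 1.22.

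The first 4 gamma genes, those next to the beta array, were all lower in condition B, against 52.8% of all genes at a mean of at least 50. Pcdhga3 was 2.70-fold lower per the authors' deposited table, at a mean normalized count of 630 (raw p = 0.0703, adjusted p = 0.965). Pcdhga1 was 2.60-fold lower at a mean of 332 per the authors' deposited table, Pcdhga2 2.07-fold lower at 541 and Pcdhgb1 1.94-fold lower at 359. These 4 had log2 ratios from -1.43 to -0.96, whereas the other 18 gamma genes had a median of 0.13 and ranged from -1.14 to 1.72. This grouping was chosen after the values were seen and is a description only.

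Farther along the array, genes above and below 0 came in short runs of at most 3 before the C-types. Pcdhgb5 was 2.33-fold higher in condition B per the authors' deposited table, at a mean normalized count of 292, and its upstream neighbour Pcdhga8 was 2.13-fold higher at a mean of 465. Pcdhga6 was 2.21-fold lower per the authors' deposited table, at a mean of 352. Pcdhgb6, the gamma gene before the C-types with the highest mean, 1199, had a log2 ratio of -0.87 per the authors' deposited table. Between these extremes Pcdhgb2 (0.76), Pcdhgb4 (0.69), Pcdhga12 (0.67) and Pcdhgb7 (0.57) lay above 0 per the authors' deposited table, at means of 918, 733, 305 and 366. Pcdhga7 (-0.56), Pcdhga9 (-0.40), Pcdhga5 (-0.31), Pcdhgb8 (-0.29) and Pcdhga10 (-0.25) lay below it per the authors' deposited table, at means of 934, 149, 476, 56.1 and 834. Pcdhga4 and Pcdhga11 were close to 0, at 0.16 and 0.10 per the authors' deposited table, with means of 382 and 311.

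C-type genes lay mostly higher in condition B. Pcdhgc4, whose product is known to need another clustered protocadherin to reach the cell surface, had the highest log2 ratio of the members at a mean of at least 10: it was 3.29-fold higher in condition B per the authors' deposited table, at a mean normalized count of 236 (raw p = 0.0984, adjusted p = 1). Pcdhac2 was 2.78-fold higher per the authors' deposited table, at a mean of 111 (raw p = 0.285). Pcdhgc3, by far the highest member, was 1.54-fold higher in condition B per the authors' deposited table (log2 ratio 0.62, raw p = 0.311). Pcdhgc5 went the other way, with a log2 ratio of -0.43 at a mean of 1291 per the authors' deposited table. Pcdhac1 was listed at 0 in condition A with a mean of 0.527 per the authors' deposited table, too low for a fold. Of the 4 C-type genes at a mean of at least 50, 3 lay above 0 and 1 below it, against 52.8% of all genes below 0. Their median was 1.05. Because Pcdhgc3 holds 48.9% of the summed mean of all members, the log2 ratio weighted by mean normalized count was 0.11 over all members and 0.26 over gamma, opposite in sign to their medians of -0.34 and -0.27.

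**Figure D3:**
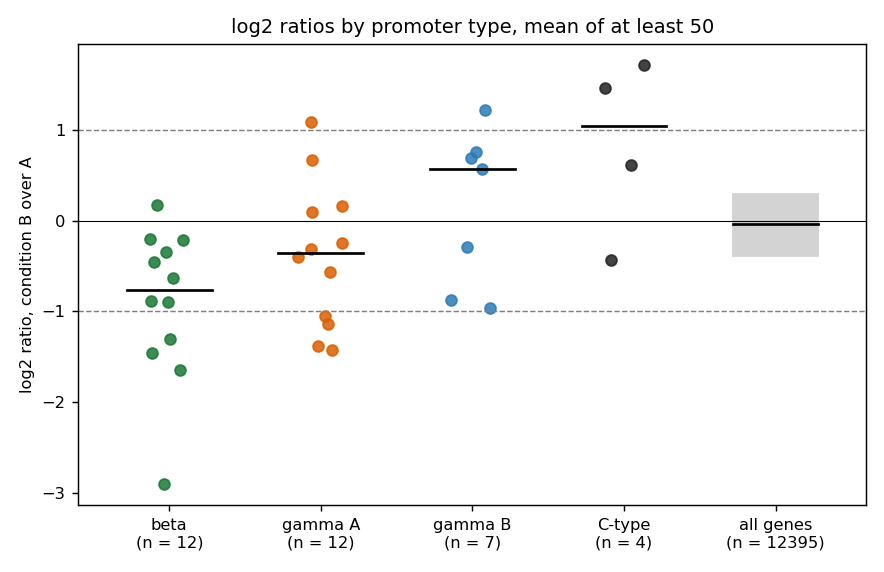
Log2 ratio of condition B over condition A (vertical axis) for the 35 members whose mean normalized count reached 50, by array and type, 1 point a gene, with black bars at the medians of -0.76 (beta), -0.35 (gamma A), 0.57 (gamma B) and 1.05 (C-type). The grey box shows the quartiles of all 12395 genes at that mean with a finite ratio, -0.39 and 0.30, and its bar their median of -0.04; dashed lines mark the size rule.

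The alpha array was too low for a comparison. Pcdhac2 was the alpha gene above the minimum mean. Pcdha10 had a mean normalized count of 30.9 and a log2 ratio of -0.03 per the authors' deposited table. Pcdha12 and Pcdha9 had nearly equal means of 12.7 and 12.8 per the authors' deposited table and opposite log2 ratios of 0.98 and -1.02. Pcdha5, Pcdha11, Pcdha3 and Pcdha6 had means from 1.00 to 4.06 and log2 ratios from 0.15 to 1.15 per the authors' deposited table. Pcdha7 was listed at 0 in condition A and Pcdha2 and Pcdha8 at 0 in condition B per the authors' deposited table, with means of 0.527, 0.474 and 0.474.

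Read along the chromosome, most but not all members with lower ratios followed each other in a single run. At a mean of at least 50 it held 14 of the 23 members below 0, and Pcdhga6 (-1.14) lay outside it. In RefSeq gene order on GRCm38, 14 members in a row from Pcdhb5 to Pcdhgb1 had a log2 ratio under 0 at a mean of at least 50, with values from -2.91 to -0.21, and 7 of them met the size rule. The next longest run of 1 sign at that mean held 3 members. With a minimum mean of 10 the run was 20 members long, from Pcdhb4 to Pcdhgb1, where 31 of 44 members lay below 0 in all (70.5%, against 51.5% of all genes at that mean). Counting every member with a mean above 0 it ran from Pcdhb7 to Pcdhgb1, again 20 members, and at a minimum mean of 200 it held 10, from Pcdhb16 to Pcdhgb1. Members that followed each other at a mean of at least 50, skipping those below it, differed by a median of 0.56 on the log2 scale. Over all 595 pairs of these members the median was 0.97. Both medians come from the values in which the run was seen, so they give it no separate support. The run was noticed in the data and has no test. Other genes lie inside it, between beta and gamma: Taf7, which encodes a subunit of the general transcription factor TFIID, had a log2 ratio of 0.57 at a mean normalized count of 457, and Slc25a2, a mitochondrial ornithine carrier gene, was listed at 0 per the authors' deposited table. The lower ratios were thus not shared by Taf7.

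Genes flanking the arrays had a median ratio closer to that of all genes than the members had, but most lay lower in condition B. Of 23 listed neighbours, 22 were in the table and 19 had a mean normalized count of at least 50. Their median log2 ratio was -0.13, against -0.04 for all genes. Of the 19, 14 lay below 0 and 5 above it, against 52.8% of all genes below 0. Ratios under 0 were thus common beside the arrays too. By the size rule 2 were lower in condition B (10.5%, near the 9.60% of all genes) and 0 higher (against 8.31%). The 2 were the endotoxin co-receptor gene Cd14 (-1.95) and Kctd16 (-2.43) per the authors' deposited table, and 0 passed the authors' threshold. Just before alpha, Zmat2 had a log2 ratio of -0.14, and Hdac3, which encodes a histone deacetylase beyond gamma, one of -0.34 per the authors' deposited table.

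**Figure D4:**
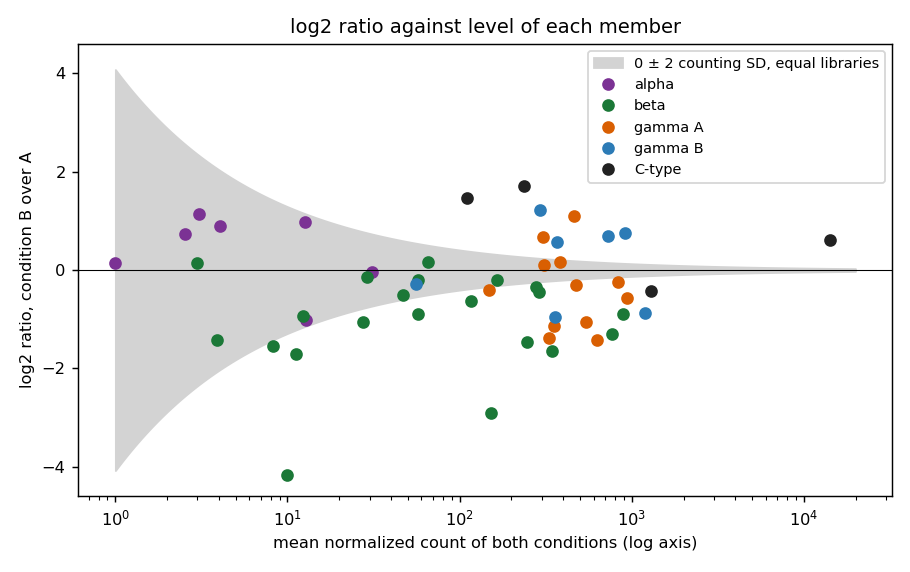
Log2 ratio of condition B over condition A (vertical axis) against the mean normalized count of both conditions (log axis) for members with a mean of at least 1 and a finite ratio, 1 point a gene. The grey band is 0 ± 2 SD of counting error for 2 equal libraries with equal counts of the gene. Its SD is 0.645 at a mean of 10 and 0.289 at a mean of 50. The band holds the 7 alpha genes before the C-types shown here and includes no replicate spread. Outside it lie 29 of the 35 members with a mean of at least 50 and 4 of the 16 with a mean from 1 to 50. The share of all genes outside the band was not counted, so these counts set members apart from no other genes.

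A context list of genes for promoter choice and chromatin held 26 genes, all above the minimum mean. Whether each of them acts at these arrays was not tested. Of the 26, 24 lay below 0 and 2 above it, against 52.8% of all genes at that mean below 0. The size rule counted 5 as lower (19.2%, against 9.60% of all genes) and 0 as higher (against 8.31%), and the median log2 ratio was -0.61. The authors' threshold was passed by 1, Uhrf1, which recruits maintenance methylation and was 5.53-fold lower in condition B per the authors' deposited table (adjusted p = 0.0160). Tet1 had a log2 ratio of -1.82, the de novo methyltransferase Dnmt3b one of -1.36 and the maintenance methyltransferase Dnmt1 one of -1.28 per the authors' deposited table, and Rad21, of the cohesin ring, one of -1.16; none of these 4 passed. Ctcf, the insulator protein gene, lay at -0.59 and Smchd1, a chromatin protein that represses clustered protocadherins, at -0.81 per the authors' deposited table. Dnmt1 and Uhrf1 are also genes of dividing cells, and the part of any of these factors in the protocadherin ratios was not tested.

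Non-clustered protocadherins were also compared. Of 12 such genes, which are single adhesion genes elsewhere in the genome or beyond the arrays, 8 had a mean normalized count of at least 50, with a median log2 ratio of 0.73. The size rule counted 2 of these 8 as higher in condition B (against 8.31% of all genes) and 0 as lower (against 9.60%). The 2 were Pcdh10, 4.98-fold higher at a mean of 380, and Pcdh9, 2.07-fold higher at 3152, per the authors' deposited table. Neither passed the authors' threshold (adjusted p = 0.310 for Pcdh10). Pcdh19, which had the highest mean of the 12, 15472, lay at -0.49 per the authors' deposited table. Pcdh11x (1.00 after rounding, just short of the rule) and Pcdh20 (0.74) followed per the authors' deposited table. Genes for cleavage and signalling of clustered protocadherins, such as the protease Adam10 and the gamma-secretase subunits, had a median of 0.17 over 13 genes. The kinase gene Ptk2b, whose product binds the alpha and gamma tails, met the size rule, at 1.41 per the authors' deposited table, but did not pass (adjusted p = 0.619), and Fyn, Psen2 and Ret had 0.48, 0.43 and -0.88 there.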

How the data were processed

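Per the labels' protocols, library preparation used the TruSeq RNA v2 kit. Reads from this kit keep no strand. Alignment with TopHat2 2.0 to mm9 and a comparison with DESeq are named in the submitters' processing notes; counter, annotation and settings were not given in the sources used here. As signal the authors deposited, for each gene, the mean of the size-factor-normalized counts of the 2 conditions. The authors' deposited ratio, or fold, and its log2 value use no pseudocount. The direction, B over A, follows the convention of the authors' DESeq. All p-values were deposited by the authors. In all, 2 columns of per-sample values were not used, so library depth and counting intervals of single ratios were not analysed here. The summed mean was 58127871 over 23365 genes, of which 6026 were at 0.

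Python 3.11.15 and pandas 2.3.3 were used. The size rule took log2 ratios at or beyond 1 in either direction at a mean of at least 50. The counting SD takes a normalized count as 1 read and the counts of both conditions as equal. The smallest means above 0 were 0.474 and 0.527. Gene order came from RefSeq (GRCm38), for which all 59 members matched, and lengths from GENCODE M21. That build differs from mm9, so no coordinates are given. Members with a mean of at least 50, array extremes, C-types and up to 4 genes a context list are named; further named genes were chosen after their values were seen. Members and lists were chosen with earlier results of these data known. Alternatives were minimum means of 10, 200 and none, a 1.5-fold ratio, a log2 ratio of 2, centring on the median or on a trimmed mean (30% and 5% trimmed), weighting by the mean and an adjusted p under 0.05. A median shifted by over 0.1 was counted as moved. Centring was tested on simulated data.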

Additional observations from a re-analysis of the deposited data

How the results depend on the processing

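Centring on the median or the trimmed mean of all genes, both -0.04, moved no count by over 1.5 times and no median by over 0.1. Of the size-rule counts, 4 higher and 8 lower, no minimum mean gave 8 and 16, a 1.5-fold ratio gave 8 and 13, and a log2 ratio of 2 gave 0 and 1. Weighting by mean normalized count reversed the values of all members (0.11) and gamma (0.26) and gave -1.04 for beta. The gamma median was -0.08 at a minimum mean of 200. The beta median was -0.90 at a minimum of 10 or none and -1.11 at 200. Added after the data were seen, leaving out Pcdhb12 and Pcdhb21, which share at least 10% of their words with other members, gave -0.63 for beta. The alpha value, 1.47 from Pcdhac2 alone, was 0.47 at a minimum of 10 and 0.81 with none, and no alpha gene remained at 200. The cause of these shifts was not tested, other than the genes each setting adds or leaves out. The number of members passing the authors' threshold was 0 also at an adjusted p under 0.05. No paired analysis was possible because each genotype has 1 library, and no library could be left out. Below a mean of about 50, counting limits the ratios.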
